A study of Mus musculus with 12 samples.

Results

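The genes described here are 45 components of mitosis, the part of the cell cycle in which duplicated chromosomes are separated and the cell divides. They were taken by name, as a list of mitotic spindle, kinetochore and cytokinesis genes, from among the 24343 gene names of the deposited tables. The list was chosen with earlier results of these data known, so its counts beside those of all genes are a description. All 45 were present, and all 45 passed the filter on low values that left 11924 genes for testing. They were measured by RNA-seq in HT22 cells, an immortalized mouse line described by its labels as hippocampal neurons, in 12 libraries of 3 biological replicates in each of 4 groups. Cells of the siControl group received a control siRNA and were kept at normal iron, and cells of the siNCOA4 group received an siRNA against Ncoa4, the cargo receptor that delivers ferritin to the lysosome so that its iron is released. The siControl+DFO and siNCOA4+DFO groups received the same siRNAs and, in addition, deferoxamine (DFO), an iron chelator, at 100 µM for 24 h. All libraries come from the 1 cell line, so the replicates describe the spread between cultures of that line and not between animals.

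Values are FPKM, read fragments scaled to transcript length and to the size of the library, as the authors deposited them. Relative sequencing depth, read from the steps between low FPKM values, spanned 1.52-fold between the shallowest and the deepest library. Ncoa4 itself was at 6.22 ± 0.222 FPKM (SD, n = 3) in siControl and 0.871 ± 0.0929 FPKM in siNCOA4, and at 8.18 ± 0.600 FPKM in siControl+DFO and 1.24 ± 0.363 FPKM in siNCOA4+DFO. It fell by 2.71 ± 0.21 on the log2 scale (6.53-fold, limma adjusted p = 1.25e-05) without DFO and fell by 2.67 ± 0.21 on the log2 scale (6.35-fold, limma adjusted p = 2.83e-05) with DFO, so the siRNA labels match the level of its target in every group. The label of a neuron is not matched by neuronal markers. Of 13 neuronal markers listed, Tubb3 was the highest at 4.56 to 13.6 FPKM, Gad1 and Prox1 were listed at 0 in every library, and Rbfox3, Map2, Snap25, Nefl, Nefm, Slc17a7 and Grin1 stayed at or below 0.179 FPKM. Camk2a reached at most 1.42 FPKM, in siNCOA4, Syp at most 0.554 FPKM and Neurod1 at most 0.251 FPKM. Summed over their lists, markers of oligodendrocytes, microglia and endothelial cells stayed at or below 1.47, 0.845 and 0.613 FPKM. Vim (1169 to 1662 FPKM), Col1a1 (73.4 to 439 FPKM) and Col1a2 (268 to 1107 FPKM) were high. Vim is listed with neural progenitor markers, of which Msi1 reached at most 2.39 FPKM and Nes 0.318 FPKM, and Sox2 and Pax6 were at 0. Listed with the collagens as fibroblast markers, Pdgfrb was at 2.59 to 28.0 FPKM and Thy1 at 7.38 to 13.5 FPKM.

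Mitosis begins when the kinase Cdk1, bound to a cyclin A or B subunit and released from inhibition by Cdc25 phosphatases, drives the breakdown of the nuclear envelope and the assembly of a bipolar microtubule spindle. Chromosomes attach to the spindle through kinetochores, protein assemblies built on centromeres, and a checkpoint holds the cell until every kinetochore is attached. The anaphase-promoting complex then marks cyclin B and securin for destruction, separase cuts the cohesin that holds sister chromatids together, and a central spindle directs the cleavage furrow that splits the cell. Most of these genes are transcribed mainly in G2 and M phase, under the MuvB complex with B-Myb and FoxM1, and are repressed when p53 induces the kinase inhibitor p21. In a bulk sample, fewer cells in mitosis and less RNA of these genes per cell cannot be told apart.

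All 45 genes were far above the filter of 0.5 FPKM in untreated cells. Since FPKM is scaled by transcript length, levels can be set side by side between genes. Mean siControl FPKM ranged from 9.59 for Kif18a, a motor that limits the length of kinetochore microtubules, to 260 for Top2a, the topoisomerase that untangles sister chromatids, with a median of 37.6 FPKM. After Top2a followed Birc5 (157 ± 20.0 FPKM, SD, n = 3) and Zwint (123 ± 4.32 FPKM). Cdc25c (11.8 ± 0.868 FPKM) and Ttk (12.9 ± 1.02 FPKM) were next to Kif18a at the low end, and their replicate values overlapped. Across genes, the signed DFO response in control siRNA cells and the log2 siControl level had a Pearson r of 0.014 (over the 45 genes, which are not independent replicates).

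Across the 4 groups, 40 of the 45 genes differed (limma moderated F-test, Benjamini-Hochberg adjusted p below 0.05), against 63.8% of all genes tested. The 5 that did not were Ttk, Nuf2, Spc24, Sgol1 and Anln. Spc24 passed in 2 of the single comparisons but not in this test over all groups. The differences lay mainly between libraries with and without DFO. For each library, the median over the 45 genes of log2(FPKM + 0.1) was taken after centring each gene on its siControl mean. It lay between 0.0022 and 0.0073 in the siControl libraries and between -0.0184 and 0.0173 in the siNCOA4 libraries. With DFO it lay between -0.458 and -0.395 in control siRNA cells and between -0.708 and -0.530 in Ncoa4 siRNA cells. The untreated groups overlapped each other, both DFO groups lay below them, and the siNCOA4+DFO libraries lay below all siControl+DFO libraries. The same centring over all genes tested gave medians close to 0 in every library, from -0.0073 to 0.0213. Summed over the 45 genes, the FPKM was 2272 to 2312 in siControl, 2213 to 2250.2 in siNCOA4, 1803 to 1901 in siControl+DFO and 1636 to 1688 in siNCOA4+DFO, and no 2 of these ranges overlapped. Over all genes, the FPKM summed to 6.16e+05 to 6.28e+05 in siControl and 5.66e+05 to 5.99e+05 in siNCOA4. With DFO it summed to 6.76e+05 to 7.23e+05 in control siRNA cells and 6.91e+05 to 7.37e+05 in Ncoa4 siRNA cells. These totals differed between groups, and the sums over the 45 genes are not shares of them.

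**Figure D1:**
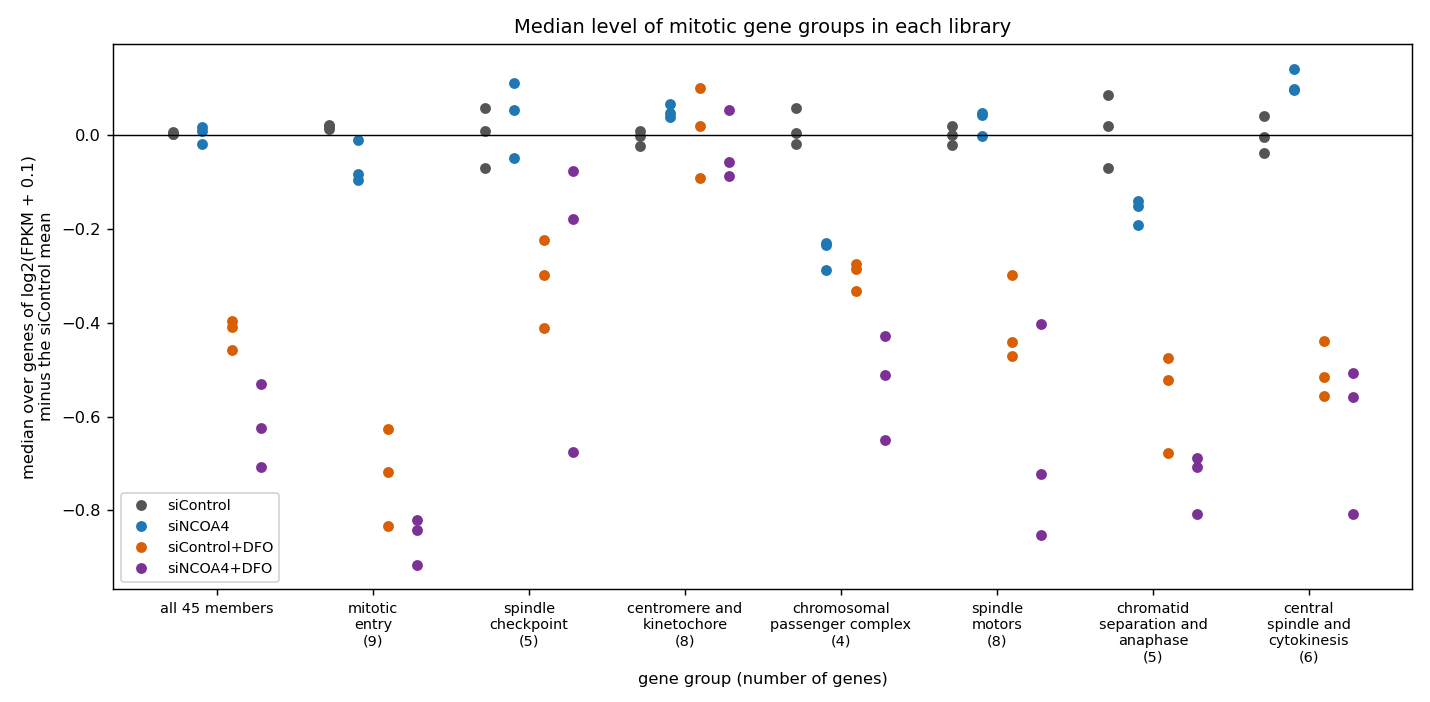
Each point is 1 library, and its height is the median over the genes of a role group of log2(FPKM + 0.1) minus the gene's siControl mean, with the number of genes in brackets. Over all 45 genes the siControl+DFO libraries sit between -0.458 and -0.395 and the siNCOA4+DFO libraries between -0.708 and -0.530, while the centromere and kinetochore group stays between -0.0914 and 0.101 in all 4 groups.

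DFO lowered most of these genes in control siRNA cells. Compared with siControl, 26 of the 45 were lower in siControl+DFO, 8 were higher and 11 did not pass the test, against 25.7% lower and 27.7% higher among all genes tested (limma, Benjamini-Hochberg adjusted p below 0.05). Their median log2 change was -0.45, against -0.01 over all genes. A fall of more than 2-fold was seen for 8 genes (Plk1, Ccnb2, Cenpf, Bub1b, Ube2c, Bub3, Cdc25b and Kif2c) and a rise of that size for 0, against 7.76% and 11.1% of all genes. Replicates of the 2 groups did not overlap for 27 genes that were lower and 8 that were higher, against 29.6% and 31.1% of all genes. Cdkn1a, which encodes the p53-induced kinase inhibitor p21, moved with these changes: it was at 12.7, 16.2 and 16.1 FPKM in siControl and at 435, 467 and 433 FPKM in siControl+DFO, and it rose by 4.89 ± 0.16 on the log2 scale (29.6-fold, limma adjusted p = 6.53e-10). Mki67, a general marker of cycling cells, was at 202, 174 and 169.6 FPKM and 177, 155 and 150.0 FPKM in the same groups and did not pass the test (log2 difference -0.18 ± 0.10, limma adjusted p = 0.153). The 4 fibroblast markers listed summed to 1289.7 to 1586 FPKM in siControl and 352 to 471 FPKM in siControl+DFO, none of them at 0, and the astrocyte markers, in practice Slc1a3, to 36.1 to 45.6 FPKM and 2.64 to 4.76 FPKM. The part of Cdkn1a or of these markers in the mitotic changes was not tested.

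**Figure D2:**
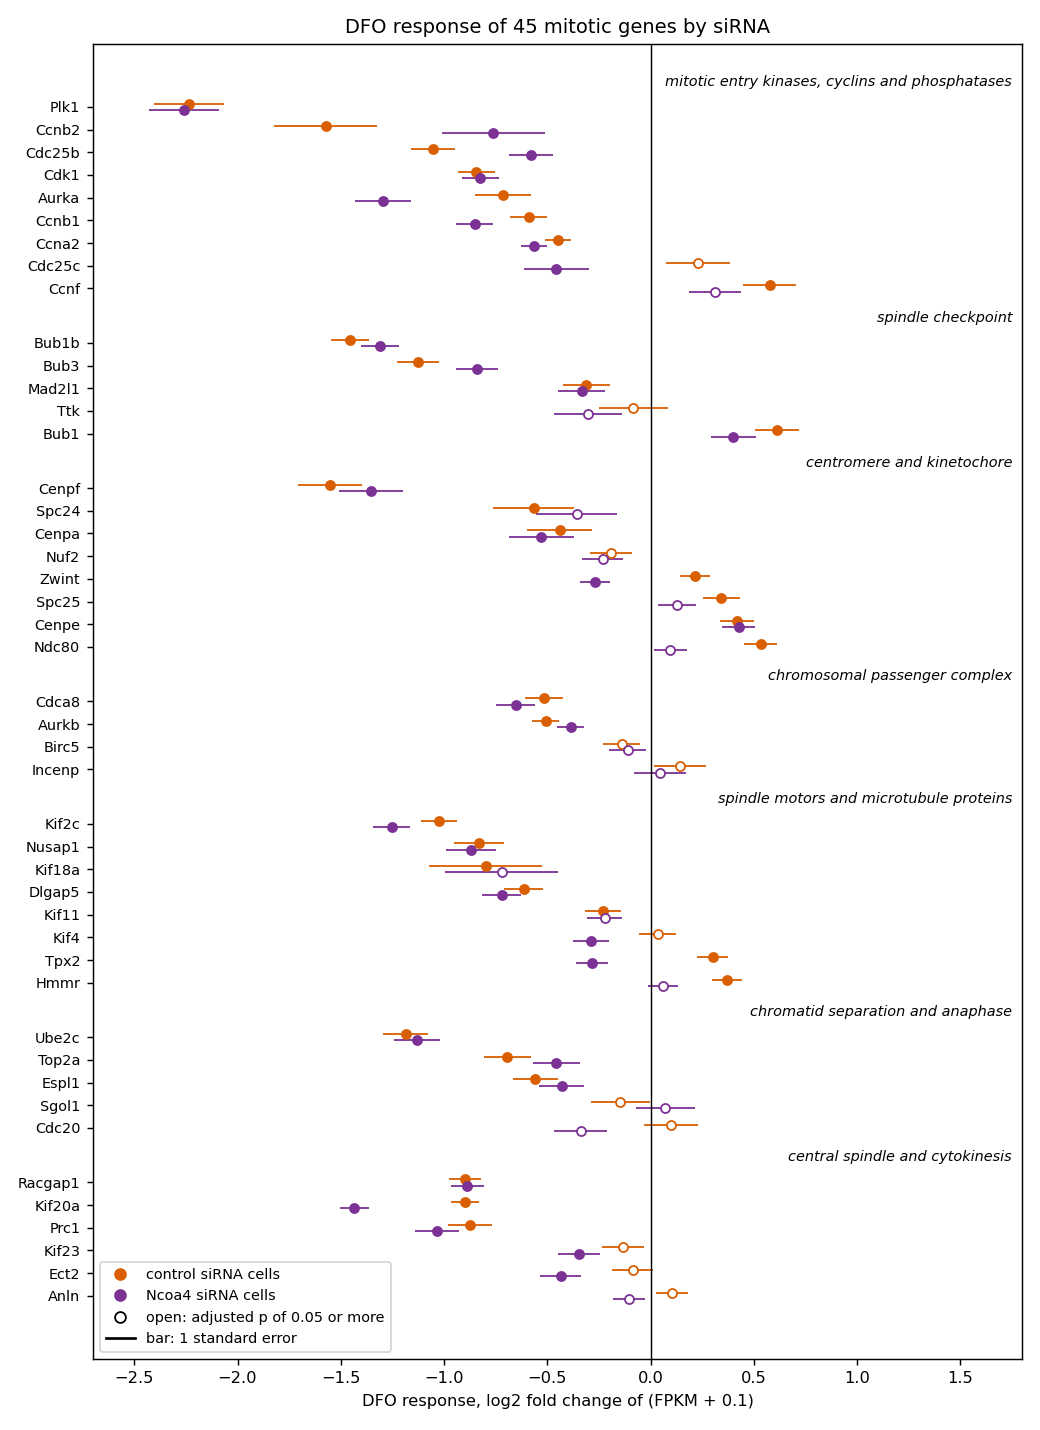
Log2 fold change with DFO for each of the 45 genes in control siRNA cells (orange) and in Ncoa4 siRNA cells (purple), ordered within role groups, with bars of 1 standard error and open symbols where the limma adjusted p was 0.05 or more. Plk1 is the lowest at -2.23 and -2.26, Bub1 and Ccnf rise furthest in control siRNA cells, and most of the other filled symbols lie left of 0.

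Genes that drive entry into mitosis fell furthest. Of the 9 kinases, cyclins and phosphatases in this group, 7 were lower with DFO, 1 was higher and 1 did not pass, with a median log2 change of -0.72. Plk1, the polo-like kinase that matures centrosomes and activates Cdk1, was at 36.7, 34.8 and 36.9 FPKM in siControl and at 5.85, 8.41 and 8.91 FPKM in siControl+DFO. The groups lay far apart, and Plk1 fell by 2.23 ± 0.17 on the log2 scale (4.71-fold, limma adjusted p = 5.07e-07), the largest fall of the 45 genes. Ccnb2, a B-type cyclin, was at 14.3, 12.1 and 14.6 FPKM without and 3.98, 4.14 and 5.58 FPKM with DFO. All DFO values were below all untreated ones, and it fell by 1.57 ± 0.25 on the log2 scale (2.98-fold, limma adjusted p = 0.000197). Its partner kinase Cdk1 was at 40.3, 48.5 and 51.6 FPKM and 26.1, 26.5 and 25.1 FPKM. The groups again did not overlap, and it fell by 0.84 ± 0.09 on the log2 scale (1.796-fold, limma adjusted p = 7.41e-06). Cdc25b, a phosphatase that activates Cdk1, fell by 1.05 ± 0.11 (2.08-fold, limma adjusted p = 4.91e-06), the centrosomal kinase Aurka fell by 0.72 ± 0.14 (adjusted p = 0.000793), cyclin B1 (Ccnb1) fell by 0.59 ± 0.09 (adjusted p = 0.000151) and cyclin A2 (Ccna2) fell by 0.45 ± 0.06 (adjusted p = 7.29e-05). All 4 were lower in every DFO library.

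Not every gene of mitotic entry followed. Ccnf, which encodes cyclin F, the substrate receptor of a ubiquitin ligase, was at 32.0, 28.4 and 28.3 FPKM in siControl and 43.7, 47.7 and 40.9 FPKM in siControl+DFO. Every DFO library was higher, and it rose by 0.58 ± 0.13 on the log2 scale (1.49-fold, limma adjusted p = 0.00223). Cdc25c, the sister phosphatase of Cdc25b, was at 11.997, 12.6 and 10.9 FPKM and 15.1, 12.3 and 14.4 FPKM, values that overlapped (log2 difference 0.23 ± 0.16, limma adjusted p = 0.236). For Ccnb1, 33.2% of the 75-base windows of its transcripts also occur in transcripts of Ccnb1-ps, Gm12856 or Gm8416, so its level is less certain than that of the other members, for which no more than 5.61% of windows were shared.

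The spindle checkpoint group was split. Of its 5 genes, 3 were lower, 1 was higher and 1 did not pass. Bub1b, which encodes BubR1, a component of the complex that inhibits the anaphase-promoting complex, was at 49.8, 46.4 and 49.8 FPKM in siControl and 18.7, 17.6 and 16.7 FPKM in siControl+DFO. The ranges were far apart, and it fell by 1.46 ± 0.09 on the log2 scale (2.74-fold, limma adjusted p = 1.03e-07). Bub3, the adaptor that carries Bub1 and BubR1 to the kinetochore, was at 39.2, 39.0 and 45.5 FPKM and 16.5, 20.2 and 19.9 FPKM. It too was lower in each DFO library and fell by 1.13 ± 0.10 on the log2 scale (2.18-fold, limma adjusted p = 2.03e-06). Bub1, the kinase that recruits these proteins, went the other way, from 19.7, 22.6 and 22.4 FPKM to 36.3, 31.9 and 30.9 FPKM. Each DFO library was above each siControl library, and Bub1 rose by 0.61 ± 0.11 on the log2 scale (1.53-fold, limma adjusted p = 0.000439), the largest rise of the 45 genes. Mad2l1, the Mad2 protein that binds Cdc20, was at 41.2, 54.5 and 55.6 FPKM and 42.8, 37.5 and 40.6 FPKM. Its siControl replicate 1 lay inside the DFO range, and although it fell by 0.31 ± 0.11 on the log2 scale (1.24-fold, limma adjusted p = 0.035), the call was lost with no filter, with no variance trend, when the 2 groups were fitted alone and without siControl replicate 2 or 3 or siControl+DFO replicate 2 or 3. Ttk, the Mps1 kinase, was at 13.9, 12.9 and 11.8 FPKM and 13.9, 12.1 and 10.6 FPKM, with overlapping groups (log2 difference -0.08 ± 0.17, limma adjusted p = 0.696).

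Centromere and kinetochore genes moved in both directions. Of 8 genes, 3 were lower and 4 were higher with DFO, with a median log2 change of 0.01. Cenpf, a large kinetochore and nuclear matrix protein of G2 and M phase, was at 48.2, 43.1 and 44.2 FPKM in siControl and 17.1, 14.3 and 14.8 FPKM in siControl+DFO. With no overlap between the groups, it fell by 1.55 ± 0.16 on the log2 scale (2.93-fold, limma adjusted p = 4.87e-06). The histone H3 variant of centromeres, Cenpa, was at 32.6, 40.5 and 33.1 FPKM and 23.4, 26.1 and 28.5 FPKM and fell by 0.44 ± 0.16 on the log2 scale (1.36-fold, limma adjusted p = 0.033), a call lost with no filter on low values, with no variance trend and without siControl replicate 2 or siControl+DFO replicate 1 or 2. The 4 subunits of the Ndc80 complex, which binds microtubules, did not move as 1. Ndc80 was at 29.2, 29.2 and 28.8 FPKM and 47.0, 37.9 and 42.2 FPKM, higher in every DFO library, and rose by 0.53 ± 0.08 on the log2 scale (1.45-fold, limma adjusted p = 0.000129). Spc25 was at 30.2, 28.9 and 32.1 FPKM and 42.1, 36.6 and 37.0 FPKM and rose by 0.34 ± 0.09 on the log2 scale (1.27-fold, limma adjusted p = 0.00696). Both rises were without overlap, but that of Spc25 was lost under quantile scaling. Spc24 was at 12.2, 17.7 and 15.3 FPKM and 10.0, 8.94 and 11.3 FPKM. Its groups just failed to overlap, and it fell by 0.57 ± 0.20 on the log2 scale (1.48-fold, limma adjusted p = 0.0276), a call lost without siControl replicate 2 or 3 or siControl+DFO replicate 1 or 2. Nuf2 was at 33.8, 33.5 and 31.3 FPKM and 30.6, 25.7 and 30.1 FPKM, lower in each DFO library, and did not pass (log2 difference -0.19 ± 0.10, limma adjusted p = 0.126).

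The remaining kinetochore genes were higher with DFO. Cenpe, a kinesin that carries chromosomes toward the spindle equator, was at 73.1, 62.7 and 64.9 FPKM and 98.8, 87.1 and 82.6 FPKM. All DFO values exceeded all untreated values, and it rose by 0.42 ± 0.08 on the log2 scale (1.34-fold, limma adjusted p = 0.000928). Zwint, a kinetochore scaffold protein, was at 119, 124 and 127 FPKM and 153, 139 and 138 FPKM. The groups did not overlap and it rose by 0.21 ± 0.07 on the log2 scale (1.16-fold, limma adjusted p = 0.0255), but the call was lost under quantile scaling and without siControl replicate 1 or 2 or siControl+DFO replicate 1.

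The chromosomal passenger complex, which corrects faulty attachments and later moves to the central spindle, has 4 subunits, of which 2 were lower with DFO and 2 did not pass. Cdca8 (borealin) was at 52.3, 53.4 and 53.4 FPKM in siControl and 39.6, 34.6 and 37.2 FPKM in siControl+DFO. Aurkb, the kinase subunit, was at 49.6, 50.7 and 50.1 FPKM and 33.5, 35.3 and 37.0 FPKM. Both were lower in every DFO library: Cdca8 fell by 0.52 ± 0.09 on the log2 scale (1.43-fold, limma adjusted p = 0.000541) and Aurkb fell by 0.51 ± 0.07 on the log2 scale (1.42-fold, limma adjusted p = 3.83e-05). Birc5 (survivin) was at 134, 168 and 169 FPKM and 143, 149.5 and 134 FPKM. These values overlapped (log2 difference -0.14 ± 0.09, limma adjusted p = 0.211). Its siControl replicate 1 lay below the other siControl replicates, and without that library the change of -0.25 passed the test. Incenp, the scaffold subunit, was at 68.1, 72.5 and 62.5 FPKM and 78.1, 71.2 and 74.5 FPKM and did not pass (log2 difference 0.14 ± 0.13, limma adjusted p = 0.367).

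Among 8 spindle motors and microtubule proteins, 5 were lower and 2 were higher with DFO, with a median log2 change of -0.42. Kif2c, a kinesin that takes microtubules apart at kinetochores, was at 31.9, 30.5 and 28.6 FPKM in siControl and 14.1, 14.6 and 15.8 FPKM in siControl+DFO. No DFO library reached the untreated range, and it fell by 1.02 ± 0.09 on the log2 scale (2.03-fold, limma adjusted p = 1.56e-06). Nusap1, a microtubule-bundling protein, was at 24.5, 26.3 and 25.3 FPKM and 14.0, 13.6 and 15.1 FPKM. It was lower in each DFO library and fell by 0.83 ± 0.12 on the log2 scale (1.78-fold, limma adjusted p = 0.000107). Dlgap5, a stabilizer of kinetochore fibres, fell by 0.61 ± 0.10 on the log2 scale (1.53-fold, limma adjusted p = 0.000166). Kif18a, the motor of lowest level, was at 11.5, 9.94 and 7.36 FPKM and 7.08, 4.63 and 4.74 FPKM and fell by 0.80 ± 0.27 on the log2 scale (1.74-fold, limma adjusted p = 0.027), a call lost without siControl replicate 1 or 2 or siControl+DFO replicate 2 or 3. Kif11, the motor that pushes spindle poles apart, showed the smallest fall that passed, by 0.23 ± 0.09 on the log2 scale (limma adjusted p = 0.0385). That call was lost with no variance trend and when siControl replicate 2 or 3, siNCOA4 replicate 3 or any 1 of the siControl+DFO replicates was left out. Kif4, a chromosome-bound motor, was at 29.9, 28.0 and 29.0 FPKM and 28.7, 31.6 and 28.7 FPKM, with overlap (log2 difference 0.03 ± 0.09, limma adjusted p = 0.772). Hmmr, a spindle pole protein, was at 48.3, 50.3 and 48.9 FPKM and 69.4, 62.8 and 58.7 FPKM, and Tpx2, the activator of Aurora A, was at 55.4, 53.2 and 59.7 FPKM and 72.5, 68.6 and 66.1 FPKM. Both were above siControl in all DFO libraries: Hmmr rose by 0.37 ± 0.07 on the log2 scale (1.29-fold, limma adjusted p = 0.00106) and Tpx2 rose by 0.30 ± 0.08 on the log2 scale (1.23-fold, limma adjusted p = 0.00569), the latter not under quantile scaling, where its log2 change was 0.18.

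Genes of chromatid separation and of cytokinesis were lower or did not pass, with 0 rises among 11. Ube2c, the ubiquitin-conjugating enzyme of the anaphase-promoting complex, was at 79.8, 82.5 and 90.3 FPKM in siControl and 32.7, 40.5 and 37.9 FPKM in siControl+DFO. The ranges were well separated, and it fell by 1.19 ± 0.11 on the log2 scale (2.28-fold, limma adjusted p = 2.87e-06). Top2a was at 276, 248 and 257 FPKM and 162, 149 and 172 FPKM. This most abundant member fell by 0.69 ± 0.11 on the log2 scale (1.62-fold, limma adjusted p = 0.000239), without overlap. Espl1, which encodes separase, fell by 0.56 ± 0.11 on the log2 scale (1.47-fold, limma adjusted p = 0.000923). Cdc20, the activator of the anaphase-promoting complex that the checkpoint holds back, was at 56.4, 61.4 and 64.1 FPKM and 69.7, 66.4 and 59.0 FPKM, with overlapping groups (log2 difference 0.10 ± 0.13, limma adjusted p = 0.544). Sgol1 (shugoshin), the protector of centromeric cohesion, did not pass either (log2 difference -0.15 ± 0.14, limma adjusted p = 0.409).

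Of 6 central spindle and cytokinesis genes, 3 were lower. Racgap1, a subunit of centralspindlin, was at 100.1, 97.4 and 89.8 FPKM in siControl and 52.8, 53.7 and 47.4 FPKM in siControl+DFO. Kif20a, a motor that carries the passenger complex to the central spindle, was at 46.5, 41.7 and 42.7 FPKM and 23.0, 24.2 and 22.9 FPKM. In both, no DFO library came near the untreated values: Racgap1 fell by 0.90 ± 0.08 on the log2 scale (1.87-fold, limma adjusted p = 1.49e-06) and Kif20a fell by 0.90 ± 0.07 on the log2 scale (1.86-fold, limma adjusted p = 5.16e-07). Prc1, which bundles the antiparallel microtubules of the central spindle, was at 77.4, 76.0 and 76.1 FPKM and 43.5, 41.0 and 40.5 FPKM and fell by 0.88 ± 0.11 on the log2 scale (1.83-fold, limma adjusted p = 2.4e-05). Kif23, the motor subunit of centralspindlin and partner of Racgap1, was lower in each DFO library and did not pass (log2 difference -0.13 ± 0.10, limma adjusted p = 0.28). Ect2, the exchange factor that activates RhoA at the furrow, was at 37.1, 34.3 and 41.3 FPKM and 38.2, 32.6 and 35.2 FPKM, which overlapped (log2 difference -0.09 ± 0.10, limma adjusted p = 0.491). Anln (anillin), a scaffold of the contractile ring, also did not pass (log2 difference 0.10 ± 0.08, limma adjusted p = 0.277).

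**Figure D3:**
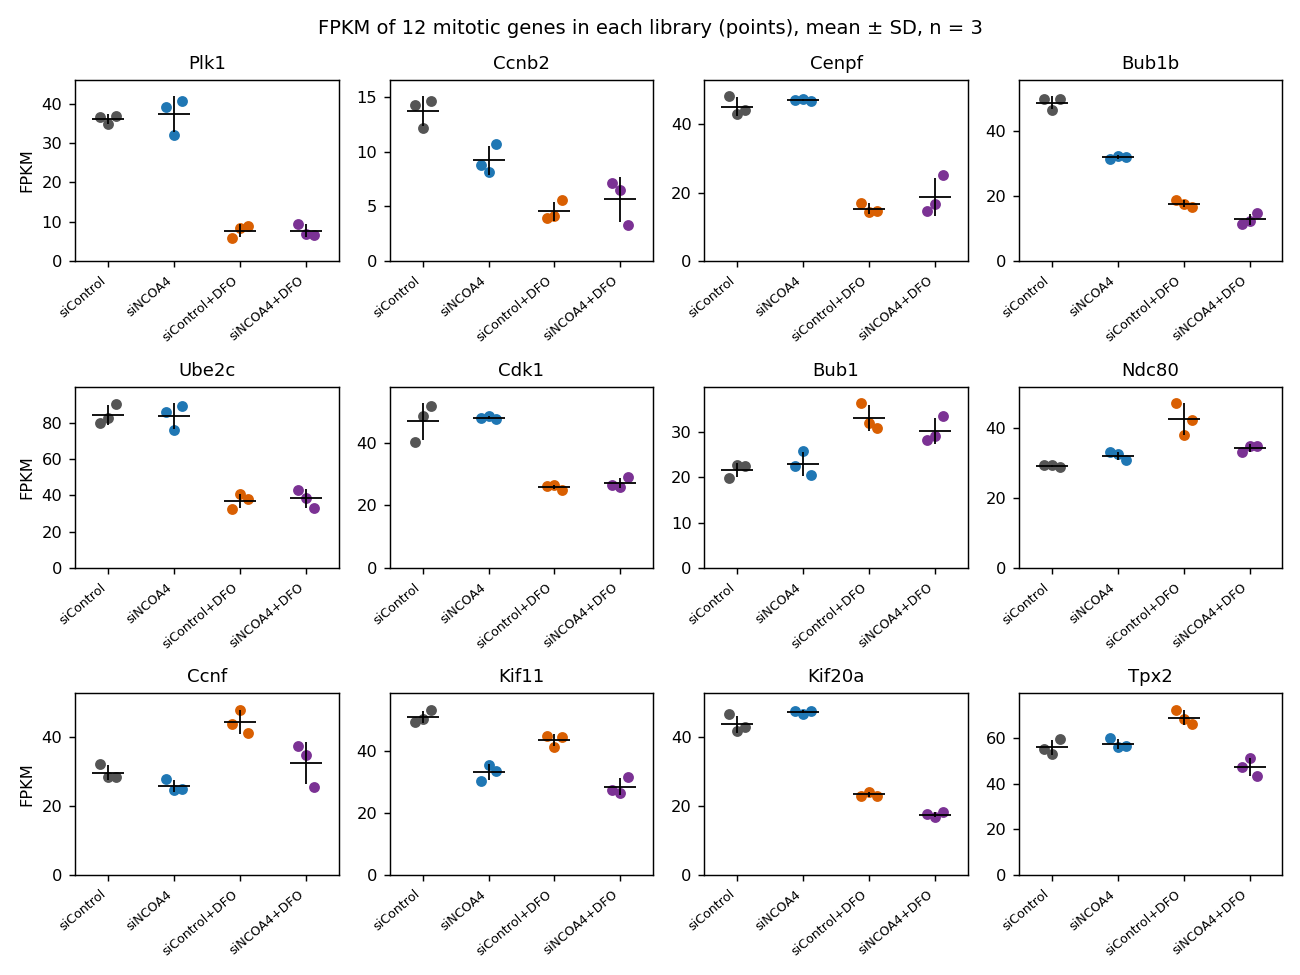
FPKM of 12 mitotic genes in each of the 12 libraries (points), with the mean and SD of 3 replicates (lines), on axes that start at 0. Plk1, Ccnb2, Cenpf, Bub1b, Ube2c and Cdk1 sit lower in both DFO groups, Bub1, Ndc80 and Ccnf sit higher in siControl+DFO, and Kif11 sits lower in both Ncoa4 siRNA groups.

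Ncoa4 siRNA alone changed 7 of the 45 genes (15.6%), against 11.7% of all genes tested. Compared with siControl, 5 were lower and 2 were higher in siNCOA4, against 7.21% and 4.52% of all genes tested, and 0 changed by more than 2-fold, against 0.973% of all genes lower and 0.805% higher by that much. The median log2 change of the 45 was -0.01, against 0.0048 over all genes. Groups did not overlap for 13 genes that were lower and 7 that were higher, against 17.6% and 14.9% of all genes. This comparison and that of siControl+DFO with siControl share the siControl libraries. The fibroblast markers summed to 733 to 937 FPKM and the astrocyte markers to 21.7 to 26.2 FPKM in siNCOA4, both below siControl, and their part in these changes was not tested.

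The clearest changes were in Kif11 and Bub1b. Kif11 was at 49.6, 50.6 and 53.4 FPKM in siControl and 30.5, 35.7 and 33.6 FPKM in siNCOA4. It was lower in each siNCOA4 library and fell by 0.62 ± 0.09 on the log2 scale (1.54-fold, limma adjusted p = 0.000701). Bub1b was at 31.3, 32.4 and 32.1 FPKM in siNCOA4, below every siControl library, and fell by 0.61 ± 0.09 on the log2 scale (1.52-fold, limma adjusted p = 0.00138). Both calls were kept in each of the 12 fits that left out 1 library. Zwint was at 152, 169 and 174 FPKM in siNCOA4, above every siControl library, and rose by 0.41 ± 0.07 on the log2 scale (1.33-fold, limma adjusted p = 0.00348), a call also kept in each of those fits. The other 4 genes passed less firmly: Incenp fell by 0.47 ± 0.13 on the log2 scale (1.38-fold, limma adjusted p = 0.0321), Espl1 fell by 0.43 ± 0.11 on the log2 scale (1.35-fold, limma adjusted p = 0.0245), Cdc25b fell by 0.37 ± 0.11 on the log2 scale (1.30-fold, limma adjusted p = 0.0399) and Prc1 rose by 0.39 ± 0.11 on the log2 scale (1.31-fold, limma adjusted p = 0.0336). Incenp lost its call in 4, Espl1 in 3, Cdc25b in 7 and Prc1 in 6 of the 12 fits with 1 library left out. Cdc25b, Incenp and Prc1 were also lost with no filter on low values and with no variance trend.

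Ccnb2 had an estimate of similar size. It was at 8.78, 8.15 and 10.7 FPKM in siNCOA4, below all siControl values, yet with its spread over replicates the change did not pass (log2 difference -0.57 ± 0.25, limma adjusted p = 0.167), and among the alternatives tried it did so only without siNCOA4+DFO replicate 3 or when the 2 groups were fitted alone. Cenpa (log2 difference -0.53 ± 0.16, limma adjusted p = 0.0505) and Spc25 (log2 difference 0.30 ± 0.09, limma adjusted p = 0.0506) lay just outside the threshold. Plk1, the gene with the largest DFO response, was at 39.1, 32.1 and 40.7 FPKM in siNCOA4, which overlapped siControl (log2 difference 0.04 ± 0.17, limma adjusted p = 0.923).

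DFO lowered most of these genes in Ncoa4 siRNA cells as well. Compared with siNCOA4, 29 of the 45 were lower in siNCOA4+DFO, 2 were higher and 14 did not pass, against 19.6% lower and 23.1% higher among all genes (limma, Benjamini-Hochberg adjusted p below 0.05). Their median log2 change was -0.43, against -0.0035 over all genes. The fall was more than 2-fold for 8 genes, against 3.83% of all genes, and 0 rose by that much, against 7.59%. Groups did not overlap for 29 lower and 2 higher, against 25.1% and 27.6%. Of the 45, 23 were lower with DFO in both siRNA backgrounds, 3 (Spc24, Kif11 and Kif18a) were lower past the test in control siRNA cells alone and 6 (Cdc25c, Zwint, Kif4, Tpx2, Kif23 and Ect2) were lower in Ncoa4 siRNA cells alone. Of these 6, Zwint and Tpx2 were higher with DFO in control siRNA cells. Ccnf, Ndc80, Spc25 and Hmmr were higher in control siRNA cells and did not pass in Ncoa4 siRNA cells. A gene that passed in 1 background and not in the other is not thereby shown to differ between them. The test of that difference is given after the level comparisons. Bub1 and Cenpe were higher in both. The fibroblast markers summed to 401 to 479 FPKM and the astrocyte markers to 4.55 to 12.7 FPKM in siNCOA4+DFO.

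Plk1 was at 39.1, 32.1 and 40.7 FPKM in siNCOA4 and 9.59, 7.01 and 6.69 FPKM in siNCOA4+DFO. The groups did not overlap, and it fell by 2.26 ± 0.17 on the log2 scale (4.79-fold, limma adjusted p = 1.04e-06). Kif20a was at 47.6, 46.8 and 47.7 FPKM and 17.6, 16.7 and 18.1 FPKM. With a wide gap between the groups, it fell by 1.43 ± 0.07 on the log2 scale (2.70-fold, limma adjusted p = 3.8e-08). Cenpf was at 47.1, 47.4 and 46.9 FPKM and 14.7, 16.8 and 25.1 FPKM, and siNCOA4+DFO replicate 3 was the highest of its group. It fell by 1.36 ± 0.16 on the log2 scale (2.56-fold, limma adjusted p = 2.61e-05). Bub1b, already lower after Ncoa4 siRNA, was at 11.5, 12.4 and 14.7 FPKM in siNCOA4+DFO. Every value lay below the siNCOA4 range, and it fell by 1.31 ± 0.09 on the log2 scale (2.48-fold, limma adjusted p = 5.85e-07). Aurka was at 33.9, 29.3 and 31.6 FPKM and 12.7, 15.7 and 10.5 FPKM and fell by 1.30 ± 0.14 on the log2 scale (2.46-fold, limma adjusted p = 1.32e-05).

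The other genes whose values in control siRNA cells were given above ran as follows with DFO in Ncoa4 siRNA cells. Ube2c was at 85.9, 75.7 and 89.5 FPKM in siNCOA4 and 43.2, 38.7 and 33.0 FPKM in siNCOA4+DFO, Kif2c at 31.0, 29.7 and 32.9 FPKM and 12.1, 12.7 and 14.4 FPKM, and Racgap1 at 89.0, 77.1 and 82.1 FPKM and 46.2, 42.7 and 44.96 FPKM. None of these 3 overlapped, with log2 changes of -1.13 (adjusted p = 8.24e-06), -1.25 (adjusted p = 7.09e-07) and -0.89 (adjusted p = 3.56e-06) by limma. Bub3 was at 38.0, 41.0 and 43.3 FPKM and 21.1, 24.4 and 22.5 FPKM, Nusap1 at 26.5, 27.6 and 26.9 FPKM and 13.6, 12.7 and 18.6 FPKM, and Top2a at 227, 241 and 236 FPKM and 148, 161 and 209 FPKM. These were also lower in every DFO library, by limma with log2 changes of -0.84 (adjusted p = 3.78e-05), -0.87 (adjusted p = 0.000121) and -0.46 (adjusted p = 0.00591). Cdk1 was at 47.9, 48.5 and 47.7 FPKM and 26.5, 26.0 and 28.9 FPKM, Cdca8 at 53.7, 42.2 and 49.0 FPKM and 32.4, 31.1 and 28.2 FPKM, and Aurkb at 44.98, 44.1 and 43.9 FPKM and 35.1, 31.9 and 34.7 FPKM. The log2 changes of -0.82 (adjusted p = 1.66e-05), -0.65 (adjusted p = 0.000139) and -0.39 (adjusted p = 0.000468) by limma were without overlap.

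Replicates were less even for several genes of low or middling level. Ccnb2 was at 8.78, 8.15 and 10.7 FPKM in siNCOA4 and 7.18, 6.45 and 3.29 FPKM in siNCOA4+DFO. The groups did not overlap and it fell by 0.76 ± 0.25 on the log2 scale (1.69-fold, limma adjusted p = 0.0267), but the call was lost in a fit of the 2 groups alone, without siNCOA4+DFO replicate 3, where the log2 change was -0.42, and without siNCOA4 replicate 1 or 3. Cdc25c was at 14.7, 13.4 and 11.5 FPKM and 12.3, 8.79 and 8.05 FPKM. Its groups overlapped, it fell by 0.46 ± 0.16 on the log2 scale (1.37-fold, limma adjusted p = 0.0329), and the call was lost with no filter on low values, in a fit of the 2 groups alone and in 4 of the fits that left out 1 library (siNCOA4 replicate 1 or 2, siNCOA4+DFO replicate 2 or 3). Kif4 was at 29.6, 28.6 and 26.1 FPKM and 20.9, 22.7 and 25.5 FPKM, lower in all DFO libraries, and fell by 0.29 ± 0.09 on the log2 scale (1.22-fold, limma adjusted p = 0.0193), a call lost in a fit of the 2 groups alone and without replicate 1 or 2 of either group. Spc24 was at 13.7, 10.5 and 16.2 FPKM and 8.08, 11.3 and 12.1 FPKM, Ttk at 12.4, 13.9 and 13.3 FPKM and 8.003, 11.3 and 13.4 FPKM, and Nuf2 at 33.2, 33.4 and 33.9 FPKM and 26.8, 25.8 and 33.4 FPKM. These 3 overlapped and did not pass, with log2 changes of -0.36 (adjusted p = 0.162), -0.30 (adjusted p = 0.163) and -0.23 (adjusted p = 0.0831) by limma. Without siNCOA4+DFO replicate 3, Ttk (-0.47) and Nuf2 (-0.35) passed.

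Cdc20 was at 62.8, 54.1 and 58.8 FPKM and 55.9, 47.7 and 37.1 FPKM, overlapping and just outside the threshold (log2 difference -0.34 ± 0.13, limma adjusted p = 0.0514), Ect2 at 40.8, 47.3 and 41.6 FPKM and 30.1, 30.4 and 35.5 FPKM, lower in each DFO library (log2 difference -0.43 ± 0.10, limma adjusted p = 0.00379), and Birc5 at 126, 132 and 129.7 FPKM and 123, 121 and 115 FPKM, lower in each but not past the test (log2 difference -0.11 ± 0.09, limma adjusted p = 0.346). Kif11 was at 27.5, 26.5 and 31.6 FPKM in siNCOA4+DFO, which overlapped siNCOA4 (log2 difference -0.22 ± 0.09, limma adjusted p = 0.0547). Bub1, at 22.5, 25.7 and 20.5 FPKM and 28.2, 29.0 and 33.5 FPKM, and Cenpe, at 66.2, 67.7 and 65.0 FPKM and 90.2, 91.7 and 85.6 FPKM, were higher in all DFO libraries: Bub1 rose by 0.40 ± 0.11 on the log2 scale (1.32-fold, limma adjusted p = 0.00951) and Cenpe rose by 0.43 ± 0.08 on the log2 scale (1.34-fold, limma adjusted p = 0.00112). Ccnf, Ndc80, Spc25 and Hmmr, which rose with DFO in control siRNA cells, had log2 changes of 0.31 (adjusted p = 0.067), 0.09 (adjusted p = 0.369), 0.13 (adjusted p = 0.282) and 0.06 (adjusted p = 0.552) by limma in Ncoa4 siRNA cells, all above 0 and none past the test. Cdkn1a was at 49.8, 54.6 and 55.03 FPKM in siNCOA4 and 409, 364 and 247 FPKM in siNCOA4+DFO, and Mki67 at 159.9, 158 and 154 FPKM and 124, 135 and 157 FPKM.

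The rest of the 45 genes had these log2 changes with DFO in Ncoa4 siRNA cells, all by limma. Among entry genes, Ccnb1 had -0.85 (adjusted p = 1.43e-05), Cdc25b -0.58 (adjusted p = 0.000846) and Ccna2 -0.57 (adjusted p = 1.99e-05), each without overlap. Mad2l1 had -0.33 (adjusted p = 0.031), a call lost with no variance trend and in 5 of the 12 fits with 1 library left out, and Cenpa -0.53 (adjusted p = 0.017), lost without replicate 3 of either group. Zwint had -0.27 (adjusted p = 0.00988) and Tpx2 -0.28 (adjusted p = 0.0102), both lower in every DFO library, and that of Zwint was lost under quantile scaling. Dlgap5 had -0.72 (adjusted p = 7.61e-05), Espl1 -0.43 (adjusted p = 0.00662) and Prc1 -1.04 (adjusted p = 1.16e-05), all past the test. Kif23 had -0.35 (adjusted p = 0.0152), a call lost in a fit of the 2 groups alone and without siNCOA4 replicate 2 or siNCOA4+DFO replicate 1 or 3. Kif18a had -0.72 (adjusted p = 0.0514), with siNCOA4+DFO replicate 3 inside the untreated range, and did not pass. Incenp had 0.04 (adjusted p = 0.808), Sgol1 0.07 (adjusted p = 0.721) and Anln -0.10 (adjusted p = 0.312), none of them past the test.

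In cells with both treatments, the median of the mitotic genes stood lowest, though not every gene did. Set against siControl+DFO, 31 of the 45 estimates were below 0 and 14 were above. Compared with siControl, 31 of the 45 were lower in siNCOA4+DFO and 5 were higher (Bub1, Spc25, Cenpe, Ndc80 and Hmmr), against 23.4% and 25.4% of all genes and 48.8% in either direction. The fall passed 2-fold for 10 genes, against 5.93%, and 0 rose by that much, against 9.24% (15.2% in either direction). The median log2 change was -0.60, against 0.0103 over all genes. Groups did not overlap for 30 lower and 6 higher, against 26.3% and 28.5%. The largest falls were in Plk1 (log2 change -2.22), Bub1b (-1.92), Ccnb2 (-1.33), Kif20a (-1.32), Cenpf (-1.29) and Kif2c (-1.21), each with a limma adjusted p of 0.000777 or less. For Plk1, Ccnb2 and Cenpf, DFO with control siRNA gave estimates as large or larger in size (-2.23, -1.57 and -1.55). Mitotic entry genes had a median of -0.92 and kinetochore genes a median of -0.03. All 4 passenger complex subunits were lower, including Birc5 and Incenp, which had not passed with DFO alone: Birc5 fell by 0.39 ± 0.09 on the log2 scale (1.31-fold, limma adjusted p = 0.0034) and Incenp fell by 0.43 ± 0.13 on the log2 scale (1.34-fold, limma adjusted p = 0.0142), the latter not when the 2 groups were fitted alone or without siControl replicate 2. Of the 5 rises, that of Ndc80 was lost without any 1 of the siControl replicates or siNCOA4+DFO replicate 2 or 3, and that of Hmmr without siControl replicate 3 or siNCOA4+DFO replicate 3.

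With DFO present in both, Ncoa4 siRNA lowered a part of the list. Compared with siControl+DFO, 13 of the 45 were lower in siNCOA4+DFO and 0 were higher, against 10.2% and 6.22% of all genes (limma, Benjamini-Hochberg adjusted p below 0.05). At an unadjusted p below 0.05, 20 genes passed in either direction. The share of all genes at that threshold was not computed for this comparison, so that count has no background to be set against. Changes of more than 2-fold were 0, against 1.01% lower and 1.07% higher among all genes (2.09% together), and the median log2 change was -0.14. Groups did not overlap for 17 lower and 2 higher, against 20.1% and 14.7%. The 13 were Ccnb1, Ccnf, Cdc25c, Bub1b, Cenpa, Ndc80, Incenp, Kif11, Kif4, Tpx2, Cdc20, Kif20a and Kif23. Under quantile scaling 9 genes passed, with a median of -0.025: 7 of the 13, still lower, and 2 newly past the test as higher, Bub3 (log2 change 0.344) and Mad2l1. Ccnb1, Ccnf, Cdc25c, Ndc80, Kif4 and Cdc20 lost their calls under that scaling. A fit of these 2 groups alone left 4 (Kif11, Tpx2, Kif20a and Kif23).

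Kif11 was at 44.95, 41.3 and 44.7 FPKM in siControl+DFO and 27.5, 26.5 and 31.6 FPKM in siNCOA4+DFO. As without DFO, each Ncoa4 siRNA library was lower, and it fell by 0.61 ± 0.09 on the log2 scale (1.53-fold, limma adjusted p = 0.000965). Tpx2 was at 72.5, 68.6 and 66.1 FPKM and 47.2, 51.3 and 43.6 FPKM. No value overlapped, and it fell by 0.55 ± 0.08 on the log2 scale (1.46-fold, limma adjusted p = 0.00099). Kif20a was at 23.0, 24.2 and 22.9 FPKM and 17.6, 16.7 and 18.1 FPKM. It was lower in each library with both treatments and fell by 0.42 ± 0.07 on the log2 scale (1.33-fold, limma adjusted p = 0.00225). Cdc25c (log2 difference -0.53 ± 0.16, limma adjusted p = 0.0377) and Cdc20 (log2 difference -0.49 ± 0.13, limma adjusted p = 0.0234) passed but depended on single libraries. Without siNCOA4+DFO replicate 3, the log2 changes were -0.41 and -0.33 and neither passed. Ccnb1, Ccnf, Cenpa, Ndc80 and Kif4 also lost their calls in 1 or more of the fits with 1 library left out.

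Whether the DFO response differed by siRNA was tested as an interaction, the DFO response in Ncoa4 siRNA cells minus that in control siRNA cells. It passed for 3 of the 45 genes, Kif20a, Tpx2 and Zwint, all with a lower value in Ncoa4 siRNA cells, against 2.1% of all genes, 1.43% in that direction and 0.671% in the other (limma, Benjamini-Hochberg adjusted p below 0.05). At an unadjusted p below 0.05, 12 of the 45 passed, against 18.2% of all genes. The median estimate over the 45 was -0.10, and 28 estimates were below 0 and 17 above. The 95% intervals of the difference had a median half-width of 0.31 on the log2 scale, and the range was 0.19 for Ccna2 to 0.85 for Kif18a. Smaller differences than these could not be told from none with 3 replicates. The intervals are not adjusted for the number of genes, so some larger differences did not pass either. Examples are Cdc25c (-0.69, half-width 0.48) and Aurka (-0.58, half-width 0.42). The DFO responses in the 2 backgrounds, which share no library, had a Pearson r of 0.894 and a Spearman rho of 0.898 across the 45 genes, which are not independent replicates.

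Kif20a fell with DFO in both backgrounds, by 0.90 in control siRNA cells and by 1.43 in Ncoa4 siRNA cells. The difference of -0.54 ± 0.10 (95% interval -0.75 to -0.32) passed (limma adjusted p = 0.0178). Tpx2 rose from 56.1 ± 3.32 to 69.1 ± 3.22 FPKM (SD, n = 3) in control siRNA cells and fell from 57.6 ± 2.07 to 47.4 ± 3.83 FPKM in Ncoa4 siRNA cells. Both changes passed by themselves, and so did their difference of -0.58 ± 0.11 (95% interval -0.82 to -0.35, limma adjusted p = 0.0198). Zwint went from 123 ± 4.32 to 143 ± 8.12 FPKM and from 165 ± 11.3 to 137 ± 4.94 FPKM, and the 2 groups with DFO overlapped. Its difference was -0.48 ± 0.10 (95% interval -0.71 to -0.26, limma adjusted p = 0.0358).

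These interaction calls depended on single libraries and, for Zwint, on other settings. Without siNCOA4 replicate 3 all 3 were lost. Tpx2 was also lost without siControl replicate 2, siNCOA4 replicate 1 or siControl+DFO replicate 1, and Zwint in 10 of the 12 fits with 1 library left out. Zwint was also lost with the replicate block, with no variance trend and under quantile scaling, where its estimate was -0.317. With 1 library left out the estimates moved less, from -0.545 to -0.597 for Tpx2 where its call was lost and to -0.530 for Kif20a without siNCOA4 replicate 3. Cdc25c passed without siNCOA4+DFO replicate 1 (-0.87), Ccnb2 without siNCOA4+DFO replicate 3 (1.15) and Ndc80 without siControl+DFO replicate 2. Among genes that fell more than 2-fold with DFO in control siRNA cells, the estimates differed in size. Nearest to 0 were Plk1 at -0.03 (95% interval -0.55 to 0.50), Ube2c at 0.06 (-0.29 to 0.40), Bub1b at 0.15 (-0.14 to 0.43) and Cenpf at 0.20 (-0.28 to 0.67). Kif2c had -0.23 (-0.50 to 0.05) and Bub3 0.28 (-0.03 to 0.60). Cdc25b had 0.47 (0.15 to 0.80) and Ccnb2 the largest estimate above 0, 0.81 ± 0.35 (0.05 to 1.58). Both were smaller falls in Ncoa4 siRNA cells, and neither passed (limma adjusted p = 0.118 and 0.246). Of the 45 intervals, only these 2 lay wholly above 0, and 10 lay wholly below it.

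**Figure D4:**
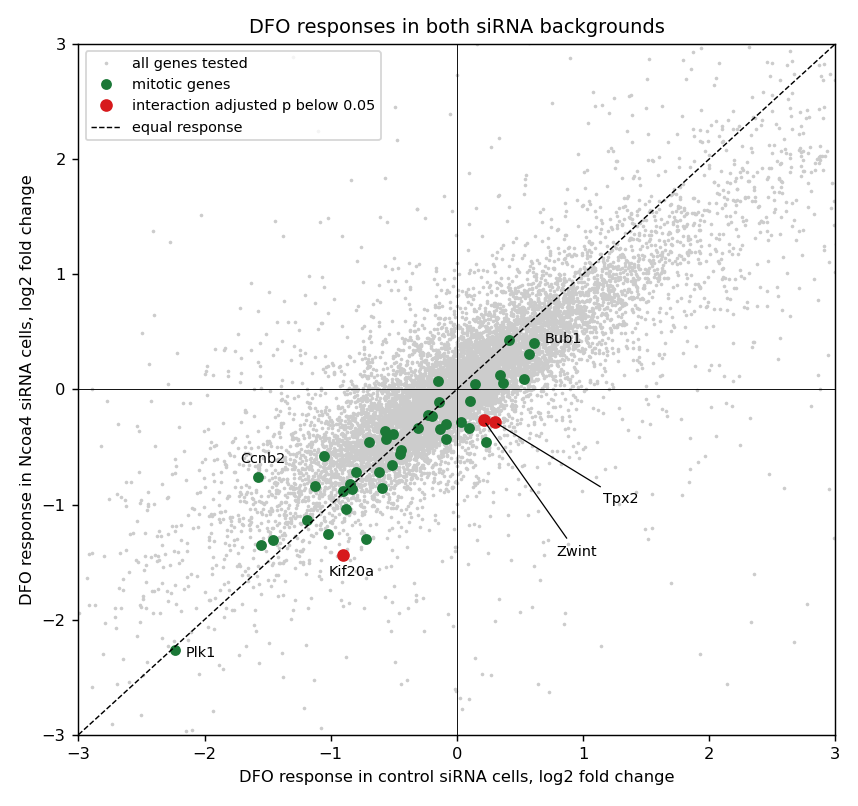
Log2 fold change with DFO in control siRNA cells (x axis) against that in Ncoa4 siRNA cells (y axis) for all genes tested (grey, those within 3 units of 0 on both axes) and the 45 mitotic genes (green, or red where the interaction adjusted p was below 0.05), with the line of equal response dashed. The mitotic genes lie along the line with a Pearson r of 0.894, and Kif20a, Tpx2 and Zwint lie below it.

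Genes of late cell cycle are known to share a promoter element, the cell cycle homology region, with the core TTTGAA, often downstream of CCAAT boxes that bind NF-Y. Promoter windows from RefSeq (GRCm38.p6), 250 bases before to 50 bases after the gene start, were matched for 37 of the 45 genes, Sgol1 under its current symbol Sgo1. Ccna2, Cdc25c, Spc24, Aurkb, Incenp, Tpx2, Dlgap5 and Kif20a had no window. The core TTTGAA, searched on both strands (TTCAAA on the other), was in 26 of 37 windows (70.3%), against 18.1% of all 27025 windows. CCAAT, also searched on both strands, was in 29 of 37 (78.4%), against 37.9%, and both together in 23 of 37 (62.2%), against 7.12%. TTCGAA was in 5 of 37 (13.5%), against 1.57%. The E2F sequence GGCGGGAA was in 0 of 37, against 2.24%, which says only that these letters were not in these windows. TTTGAA and TTCGAA are different letters and cannot match at the same place, and each match is a description of the letters, not a bound site.

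The core was found in genes that moved in either direction with DFO in control siRNA cells: in 16 of 21 windows of genes that fell, 4 of 7 of genes that rose and 6 of 9 of genes that did not pass. For CCAAT the counts were 17 of 21, 6 of 7 and 6 of 9. So that the letters can be compared, 30 bases around a core match are given 5′ to 3′ on the gene's strand with the core in capitals, first for 6 genes with large falls, then for 4 that rose and last for Cdc20, which did not pass.
Plk1: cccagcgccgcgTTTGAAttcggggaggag
Ccnb2: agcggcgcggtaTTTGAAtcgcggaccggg
Cenpf: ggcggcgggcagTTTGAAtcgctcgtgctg
Ube2c: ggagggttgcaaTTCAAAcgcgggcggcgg
Bub3: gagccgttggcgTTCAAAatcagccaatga
Racgap1: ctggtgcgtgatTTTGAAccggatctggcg
Ccnf: gctcccggcgcgTTTGAAaacggggcgggg
Ndc80: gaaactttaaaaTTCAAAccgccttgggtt
Spc25: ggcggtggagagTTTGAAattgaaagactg
Hmmr: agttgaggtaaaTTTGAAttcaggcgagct
Cdc20: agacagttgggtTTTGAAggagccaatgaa

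These windows lie at chr7:122159453-122159482 (forward strand) for Plk1, chr9:70421533-70421562 (reverse strand) for Ccnb2, chr1:189688067-189688096 (reverse strand) for Cenpf, chr2:164769888-164769917 (forward strand) for Ube2c, chr7:131560315-131560344 (forward strand) for Bub3 and chr15:99651634-99651663 (reverse strand) for Racgap1. Those of the genes that rose lie at chr17:24251406-24251435 (reverse strand) for Ccnf, chr17:71526811-71526840 (reverse strand) for Ndc80, chr2:69206172-69206201 (reverse strand) for Spc25 and chr11:40733412-40733441 (reverse strand) for Hmmr, and that of Cdc20 at chr4:118437344-118437373 (reverse strand). In Ube2c, Bub3 and Ndc80 the match is on the opposite strand, so that it reads TTCAAA. In 25 of the 26 genes with a core match, the match closest to the gene start began within 60 bases of that start, and in Kif2c it began at position -103. Both Plk1, with the largest fall, and Ccnf, with a rise, hold the core, in Ccnf at position -14 and in Plk1 at position 31, counted from the gene start. Bub1, with the largest rise, Cenpe and Zwint, which also rose, and Ccnb1 and Cdc25b, which fell, hold CCAAT boxes but no core.

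**Figure D5:**
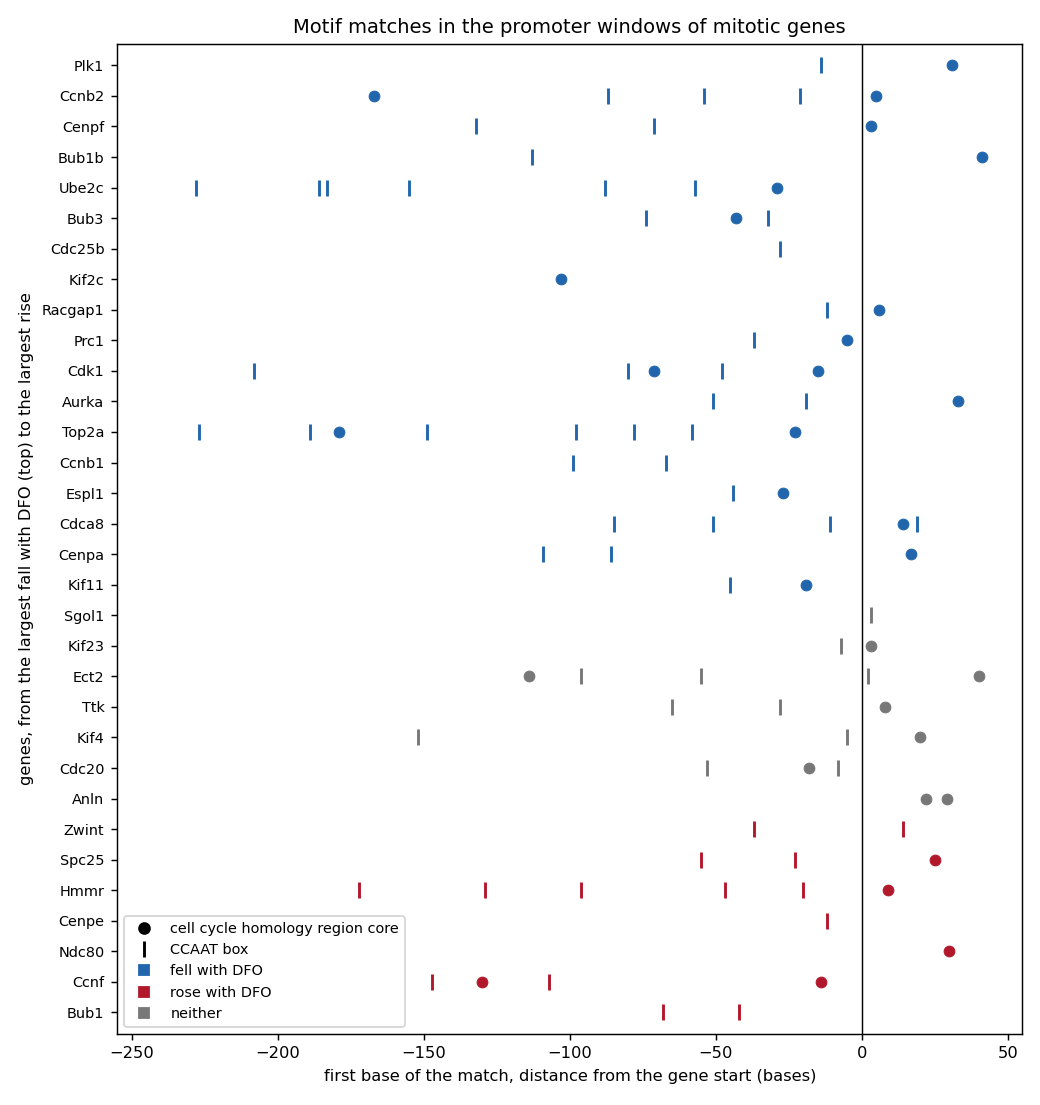
Positions of matches to the cell cycle homology region core (circles) and the CCAAT box (bars) in the promoter windows of 32 mitotic genes, with genes ordered from the largest fall with DFO in control siRNA cells at the top to the largest rise at the bottom and coloured by that response. Core matches lie mostly within 60 bases of the gene start and CCAAT boxes mostly before it, in genes that fell and in genes that rose, and the other 5 genes with a window hold neither.

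Further mitotic genes outside the 45 were lower and higher in more even numbers. Of 145 genes of the pathway listed in 7 groups, 143 were tested, and with DFO in control siRNA cells 41 were lower and 51 were higher, with a median log2 change of -0.06. In Ncoa4 siRNA cells 35 were lower and 41 were higher with DFO. Ncoa4 siRNA lowered 12 and raised 4 without DFO, and lowered 26 and raised 1 with DFO. The background shares are those given above for these comparisons. Spindle and midbody genes came closest to the 45, with 16 of 28 lower, 9 higher and a median of -0.37, and the anaphase-promoting complex followed with 5 of 17 lower, 2 higher and a median of -0.18. Other kinetochore genes (3 of 26 lower, 9 higher), other checkpoint genes (0 of 8 lower, 3 higher), condensin and cohesin (6 of 19 lower, 7 higher) and other regulators of entry and exit (6 of 20 lower, 7 higher) had at least as many genes higher as lower.

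Single genes of these groups moved strongly. Gtse1, a microtubule protein that restrains p53, was at 24.8, 23.8 and 22.8 FPKM in siControl and 184, 196 and 164 FPKM in siControl+DFO, and rose by 2.92 ± 0.17 on the log2 scale (7.57-fold, limma adjusted p = 4.83e-08). Plk2, a polo-like kinase and p53 target, was at 89.0, 88.7 and 86.3 FPKM and 670.3, 714 and 609 FPKM. In contrast to the fall of its relative Plk1, it rose by 2.91 ± 0.14 on the log2 scale (7.53-fold, limma adjusted p = 1.09e-08). Kif18b was at 21.3, 20.9 and 19.9 FPKM and 70.1, 75.7 and 67.0 FPKM and rose by 1.77 ± 0.17 on the log2 scale (3.41-fold, limma adjusted p = 2.87e-06), while its relative Kif18a fell. Ckap2, a spindle microtubule protein, rose by 1.58 ± 0.11 on the log2 scale (2.98-fold, limma adjusted p = 2.59e-07). At the kinetochore, Dsn1 of the Mis12 complex rose by 1.15 ± 0.09 on the log2 scale (2.22-fold, limma adjusted p = 7.74e-07) and Cenpq of the inner kinetochore rose by 0.96 ± 0.09 on the log2 scale (1.95-fold, limma adjusted p = 2.7e-06). Ncapg2, a condensin subunit, rose by 0.87 ± 0.08 on the log2 scale (1.82-fold, limma adjusted p = 3.12e-06), and the checkpoint proteins Spdl1 (spindly) and Zwilch had log2 rises of 0.84 (adjusted p = 7.63e-06) and 0.67 (adjusted p = 0.000131) by limma. Fzr1 (Cdh1), the activator of the anaphase-promoting complex in late mitosis and G1, was at 22.9, 20.9 and 21.6 FPKM and 8.92, 8.58 and 8.43 FPKM. It was lower in every DFO library and fell by 1.32 ± 0.10 on the log2 scale (2.503-fold, limma adjusted p = 5.89e-07). Anapc2, a subunit of that complex, fell by 0.68 ± 0.09 on the log2 scale (1.61-fold, limma adjusted p = 4.51e-05), and Pttg1, which encodes securin, fell by 0.80 ± 0.19 on the log2 scale (1.74-fold, limma adjusted p = 0.00423).

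Of 25 transcriptional regulators of mitotic genes tested, 5 were lower and 14 were higher with DFO in control siRNA cells, with a median log2 change of 0.33. Foxm1, the transcription factor that activates G2 and M phase genes, was at 37.3, 34.5 and 33.0 FPKM in siControl, 31.5, 25.4 and 26.9 FPKM in siNCOA4, 26.1, 29.1 and 28.3 FPKM in siControl+DFO and 22.7, 24.9 and 21.6 FPKM in siNCOA4+DFO. It was below siControl in each of the other groups, by log2 changes of -0.33 (adjusted p = 0.0444), -0.33 (adjusted p = 0.0117) and -0.60 (adjusted p = 0.000234) by limma. Mybl2, which encodes B-Myb, was at 16.4, 13.0 and 13.1 FPKM, 5.83, 5.97 and 5.80 FPKM, 19.7, 23.5 and 19.0 FPKM and 9.68, 10.6 and 7.03 FPKM in the same order. It fell by 1.25 ± 0.15 on the log2 scale (2.37-fold, limma adjusted p = 0.000333) with Ncoa4 siRNA alone and rose by 0.55 ± 0.15 on the log2 scale (1.46-fold, limma adjusted p = 0.00949) with DFO. Mybl1, its relative, was at 7.53, 6.95 and 4.76 FPKM in siControl and 89.8, 70.6 and 74.6 FPKM in siControl+DFO, and rose by 3.61 ± 0.16 on the log2 scale (12.2-fold, limma adjusted p = 8.62e-09).

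Cdkn1a also responded to Ncoa4 siRNA alone, to 49.8, 54.6 and 55.03 FPKM, where it rose by 1.82 ± 0.16 on the log2 scale (3.54-fold, limma adjusted p = 2.45e-05), while the median of the 45 mitotic genes was near 0 in that comparison. Its DFO response was smaller in Ncoa4 siRNA cells, 2.64 against 4.89 on the log2 scale, with an interaction of -2.24 ± 0.22 (limma adjusted p = 0.000874), and its level in siNCOA4+DFO (409, 364 and 247 FPKM) lay below that in siControl+DFO in every library (log2 difference -0.42 ± 0.16, limma adjusted p = 0.0854). The interaction also passed for Cenpq (-0.57 ± 0.13, limma adjusted p = 0.0408) and Spdl1 (-0.57 ± 0.13, limma adjusted p = 0.0398), kinetochore proteins outside the 45, and for 0 other genes of the 143. With Cdkn1a these were 3 of the 143, about the same share as among all genes tested (2.1%). Mki67 did not pass with either treatment alone, and with both it fell by 0.40 ± 0.10 on the log2 scale (1.32-fold, limma adjusted p = 0.00589).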

How the data were processed

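Total RNA of HT22 cells was sequenced in 12 libraries (4 groups, 3 biological replicates each) after siRNA delivery by liposomes and preparation with a stranded total RNA kit. The authors deposited 1 table of FPKM values per library. Per the labels, the processing notes name Trimmomatic 0.33, FastQC, HISAT2 2.1.0, featureCounts, edgeR and the mm10 build without their roles, and the annotation is not given in the sources used here. Each table held 24347 entries, of which 4 that shared a name were left out.

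Values were analysed as log2(FPKM + 0.1), so that fold changes of low genes are understated. Genes with at least 0.5 FPKM in at least 3 libraries were kept, and limma 3.58.1 in R 4.3.3 was fitted to all 12 libraries with a mean per group, a variance trend and 8 residual degrees of freedom. Benjamini-Hochberg adjustment ran over all 11924 genes, separately for each of 6 comparisons, and a gene passed at an adjusted p below 0.05. Errors of log2 changes are standard errors. No 2 libraries held identical values. Relative depth was 0.925 (siNCOA4+DFO replicate 3, the shallowest) to 1.41 (siNCOA4 replicate 3, the deepest) times that of siControl replicate 1. Both are among the libraries whose removal changed calls, and the part of depth in this was not tested. The number of reads is unknown, so no counting error is given. The fit was tested on simulated data. Promoter windows came from RefSeq (GRCm38.p6), and shared transcript windows of 75 bases from the GENCODE transcripts. The members, role groups and further lists were chosen with earlier results of these data known. In each role group, values in every library were given for the 2 members with the largest and the 1 with the smallest absolute DFO response in control siRNA cells, and for the 3 members with the largest change after Ncoa4 siRNA and the 3 with the lowest interaction p. Of each further list, the 2 genes with the largest DFO response and Foxm1, Mybl2, Cdkn1a and Mki67 were named. Values of other genes were added after they were seen.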

Additional observations from a re-analysis of the deposited data

Results flagged for a closer look

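The interaction test of limma with Benjamini-Hochberg adjustment passed for 3 of the 45 mitotic genes, against 2.1% of all genes tested. All 3 calls were lost without siNCOA4 replicate 3. That of Zwint was also lost with the replicate block, with no variance trend and under quantile scaling. The response in Ncoa4 siRNA cells minus that in control siRNA cells was -0.535 on the log2 scale for Kif20a, -0.5832 for Tpx2 and -0.4828 for Zwint. Kif20a fell in both backgrounds and further in Ncoa4 siRNA cells, while Tpx2 and Zwint rose with DFO in control siRNA cells and fell in Ncoa4 siRNA cells. Under quantile scaling, both rises and the fall of Zwint did not pass. Groups of 3 replicates are too small for a test of a single library that stands apart.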

How the results depend on the processing

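Every member that passed a test kept its direction under each alternative tried, which were other pseudocounts, filters, scalings and variance settings, fits of the compared groups alone, the replicate block and leaving out 1 library. When a change above 2-fold was required in addition, 0 genes were left for Ncoa4 siRNA alone, 8 for DFO in control siRNA cells, 10 for both treatments against siControl, 8 for DFO in Ncoa4 siRNA cells and 0 for siNCOA4+DFO against siControl+DFO. Ncoa4 siRNA alone left 4 genes of 7 both with no filter on low values and with no variance trend. Quantile scaling moved the median log2 change to -0.558 for DFO in control siRNA cells, -0.483 for DFO in Ncoa4 siRNA cells and -0.025 for siNCOA4+DFO against siControl+DFO, where a fit of the 2 groups alone left 4 genes of 13. The cause of these shifts was not tested.

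With 1 library left out, Ncoa4 siRNA alone gave 3 (without siNCOA4 replicate 2) to 9 genes, with 4 without siControl replicate 1 or 2 or siNCOA4 replicate 3. Against siControl+DFO, siNCOA4+DFO gave 8 (without siControl+DFO replicate 1) to 15 genes, with a median of -0.192 to -0.088. The interaction gave 0 (without siNCOA4 replicate 3) to 4 genes, with 1 without siControl replicate 2 or siControl+DFO replicate 1, and a median of -0.142 to -0.036. The median ranged from -0.508 to -0.437 for DFO in control siRNA cells and from -0.637 to -0.525 for both treatments against siControl.

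No pairing of samples by replicate number was seen: of 18 same-numbered pairs of libraries, whose deviations from the group means correlated at -0.127 to 0.116, 2 exceeded 0.1. Among 36 pairs with different numbers, at -0.1745 to 0.162, 4 exceeded 0.1. With groups of 3 this cannot show whether the replicates were paired. With the replicate block, 6 genes passed for Ncoa4 siRNA alone, 34 for DFO in control siRNA cells, 35 for both treatments against siControl, 32 for DFO in Ncoa4 siRNA cells, 13 against siControl+DFO and 2 for the interaction. FPKM values carry no read numbers, so the depth behind a single value is unknown, and with 3 replicates the 95% interval of the interaction had a median half-width of 0.31 on the log2 scale.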
